A study of Homo sapiens with 12 samples.

Results

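The 4 genes described here are the carbonic anhydrases CA9, CA12 and CA2 and the sodium bicarbonate cotransporter SLC4A7, out of 23106 gene symbols counted in each library. They were chosen by symbol, with levels in these same libraries already known, so that the levels and fold changes below are a description and no p-value is given for any of the 4. All 4 passed the expression filter that left 13000 genes for testing. RNA was measured in RCC4, an established line from a human clear cell kidney cancer that has no functional VHL. It was taken 48 h after the cells received pools of small interfering RNAs (siRNAs). The methods of the study state no oxygen level for these cultures. The control siRNA group received 2 nM of control siRNA. The HIF1A siRNA group received 1 nM of siRNA against HIF1A with 1 nM of control siRNA, and the HIF2A siRNA group received 1 nM of siRNA against EPAS1, the gene of HIF-2α, with 1 nM of control siRNA. The double knockdown received 1 nM of each HIF siRNA and no control siRNA. All 12 libraries share the absence of VHL and the single cell line, and each group holds 3 biological replicates whose numbers pair the groups.

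Carbonic anhydrases interconvert CO2 and water with bicarbonate and a proton, and cancer cells that make much acid use them to keep the cell interior from acidifying. CA9 and CA12 span the plasma membrane with the catalytic site outside the cell, CA2 works in the cytosol, and SLC4A7 carries bicarbonate with sodium into the cell. Without VHL the α subunits of hypoxia-inducible factor (HIF) escape oxygen-dependent degradation, which keeps HIF target genes active in air, and CA9 is the classical marker of this state in clear cell carcinoma. HIF-1 and HIF-2 bind DNA with the same partner, ARNT, at a core of the letters ACGTG or GCGTG.

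The stretch before the transcription start is shown for the 3 genes with an entry in the RefSeq promoter table (build GRCh38.p14), because the siRNAs act on factors that bind this core. Each line gives 100 bases, 5′ to 3′ on the strand of the gene, and capitals mark the letters of the core as they read on that strand, so that CACGT and CACGC are the core on the opposite strand. The CA9 line is chr9:35673828-35673927 on the plus strand and ends just before the start. The CA12 line is chr15:63381997-63382096 on the minus strand, and the SLC4A7 line is chr3:27484435-27484534 on the minus strand.
CA9: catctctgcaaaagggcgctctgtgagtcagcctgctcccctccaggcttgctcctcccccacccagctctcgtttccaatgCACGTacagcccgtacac
CA12: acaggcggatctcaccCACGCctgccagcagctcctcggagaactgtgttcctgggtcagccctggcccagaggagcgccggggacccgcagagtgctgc
SLC4A7: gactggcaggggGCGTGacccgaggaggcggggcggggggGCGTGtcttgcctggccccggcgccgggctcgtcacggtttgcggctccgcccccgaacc
The core of CA9 lies at -18 to -14 from the start, that of CA12 at -234 to -230, and the pair of SLC4A7 at -138 to -134 and -110 to -106. These were the only matches in the 250 bases before each of these starts, and a second SLC4A7 entry in the table held none. In the same window of 35116 promoters, ACGTG was found on either strand in 18.5%, GCGTG in 32.2% and at least one of them in 43.2%. A match of these letters is a description and does not by itself show binding, which was not measured here.

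The siRNAs lowered their targets. HIF1A mRNA was at 120, 58.2 and 112 CPM (counts scaled to the same library size, per 1000000) in control replicates 1, 2 and 3, and at 15, 17.8 and 22.2 CPM with HIF1A siRNA. It was at 111, 116 and 136 CPM with HIF2A siRNA and at 24.2, 32.2 and 29.7 CPM in the double knockdown. Control replicate 2 held the lowest HIF1A level outside the depleted libraries, and the double knockdown held more HIF1A mRNA than HIF1A siRNA alone at each of the 3 replicate numbers (133 to 178%). EPAS1 mRNA was 157 ± 16.9 CPM (SD, n = 3) in the control, 10.1 ± 1.53 with HIF2A siRNA and 8.94 ± 2.16 in the double knockdown. With HIF1A siRNA it was 114 ± 17.7 CPM, below its control at each replicate number (62.3 to 78.6%). Total counts ran from 13263168 to 20451433 per library. Of the markers of renal epithelium, PAX8 lay at 197 to 315 CPM and KRT8 at 366 to 570 CPM, while the epithelial cadherin CDH1 was at most 0.482 CPM. Of the 10 renal epithelial markers listed, 9 were tested and 3 passed in the double knockdown against control, where 10.3% of all genes did. These were CDH6 at 256% of control (edgeR adjusted p = 0.00016), KRT18 at 141% (adjusted p = 0.027) and KRT19 at 67.4% (adjusted p = 0.0035), a cadherin and a pair of keratins, and none passed with a single siRNA. The summed level of the 10 was 5475 to 6969 CPM in the control libraries and 4591 to 5864 CPM in the double knockdown. Most of this sum was VIM, at 4070 to 5430 CPM in the control and 3140 to 4120 CPM in the double knockdown. The sum thus mainly follows VIM, which passed in no comparison, and is no measure of the other markers. The part of the markers in the results below was not tested. Of 4 markers of clear cell carcinoma, NDUFA4L2, ANGPTL4 and VEGFA passed in the double knockdown, all lower, and NNMT did not. With HIF1A siRNA alone, where 1.39% of all genes passed, NDUFA4L2 was at 26.1% of control (edgeR adjusted p = 9.4e-04) and VEGFA at 58% (adjusted p = 3.3e-04). With HIF2A siRNA alone, where 0.200% of all genes passed, VEGFA was at 62.4% (edgeR adjusted p = 0.0098). PTPRC, PECAM1, HBA2 and HBB, markers of leukocytes, endothelium and red cells, were at 0 in all 12 libraries. CD68 (32.6 to 65.1 CPM) and COL1A1 (16.6 to 71.1 CPM) were detected, and 0 of the 3 tested markers of other cells out of 10 listed passed the test in any comparison.

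CA9 mRNA was low in every library with HIF1A siRNA. Its level was 252, 283 and 143 CPM in control replicates 1, 2 and 3 (5639 counts at most) and 26.2, 20.7 and 9.15 CPM with HIF1A siRNA. It was 312, 405 and 197 CPM with HIF2A siRNA and 16.3, 16.0 and 6.77 CPM in the double knockdown. All 6 libraries without HIF1A siRNA lay above all 6 libraries with it, the control and HIF2A siRNA ranges overlapped, and so did those of HIF1A siRNA and the double knockdown. In bulk RNA, fewer cells with a transcript and less transcript per cell cannot be told apart.

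With HIF1A siRNA, CA9 fell to 7.98% of control (95% interval 6.33 to 10.1%), a log2 fold change of -3.65 (SE 0.16), the seventh lowest of the 13000 genes. HIF2A siRNA alone went with more CA9, 135% of control (110 to 166%), and with 124, 143 and 137% at replicates 1, 2 and 3. In cells that also received HIF1A siRNA, which left 19.1% of control HIF1A mRNA alone and 30.1% in the double knockdown, HIF2A siRNA went with less CA9, 70.2% of the level under HIF1A siRNA alone (55.8 to 88.3%), and with 63.1, 77.9 and 75.3% by replicate. The double knockdown held 5.61% of control CA9 (4.41 to 7.12%) and 4.15% of the level with HIF2A siRNA (3.25 to 5.29%).

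CA12 mRNA followed another order. Its level was 89.5, 82.3 and 54.1 CPM in control replicates 1, 2 and 3 and 64.4, 70.6 and 31.8 CPM with HIF1A siRNA. It was 60.1, 76.0 and 36.0 CPM with HIF2A siRNA and 21.4, 24.0 and 10.2 CPM in the double knockdown. The 3 double knockdown libraries lay below the other 9, while the control, HIF1A siRNA and HIF2A siRNA ranges overlapped. Each single siRNA gave a level below the control of the same number in 3 of 3 replicates.

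HIF1A siRNA alone went with 71.2% of control CA12 (59.0 to 85.9%) and HIF2A siRNA alone with 74.3% (61.5 to 89.7%). In the double knockdown CA12 fell to 23.6% of control (19.3 to 28.8%, log2 fold change -2.08, SE 0.13). Once the other factor was depleted, each siRNA went with a deeper loss than it had alone, to 33.2% (27.2 to 40.4%) for HIF2A siRNA in HIF1A-depleted cells and to 31.8% (26.1 to 38.8%) for HIF1A siRNA in HIF2A-depleted cells. At replicates 1, 2 and 3 the double knockdown held 33.8, 34.4 and 33.0% of the CA12 level of HIF1A siRNA alone.

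**Figure D1:**
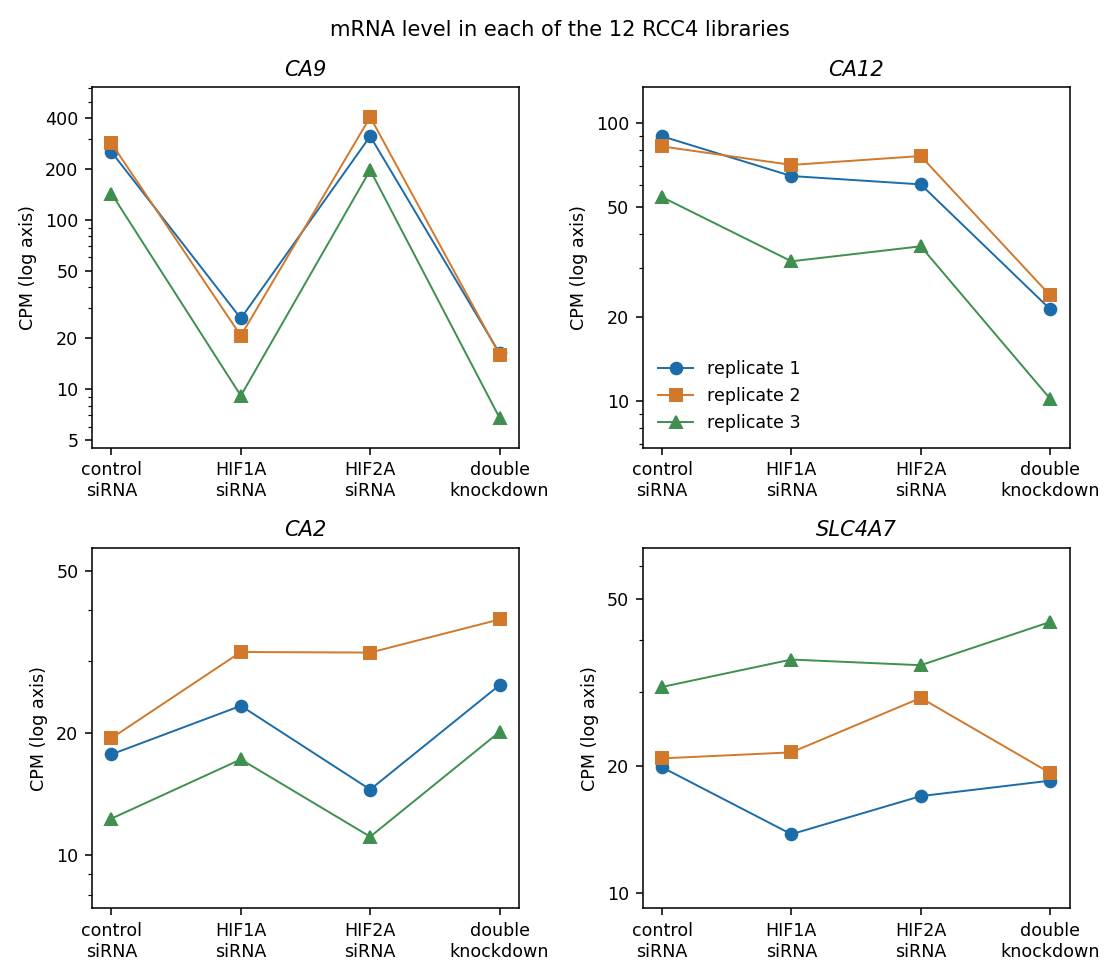
CPM (log axes, scaled separately) of the 4 genes in each library, with lines joining libraries of the same replicate number across the 4 siRNA groups. CA9 drops in both groups with HIF1A siRNA, CA12 drops most in the double knockdown, and replicate 3 lies lowest for CA9, CA12 and CA2 and highest for SLC4A7 in every group.

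Replicate 3 held the lowest CA9, CA12 and CA2 level in each of the 4 groups and the highest SLC4A7 level in each, as the plot of CPM by library shows. Its control library had 143 CPM of CA9 against 252 and 283 CPM in control replicates 1 and 2. The part of culture or library handling in these levels was not tested. The comparisons were made within replicate numbers, because the study pairs its conditions by biological replicate.

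The cytosolic enzyme CA2 was at 17.7, 19.4 and 12.3 CPM in control replicates 1, 2 and 3 and at 23.3, 31.6 and 17.2 CPM with HIF1A siRNA. It was at 14.5, 31.5 and 11.1 CPM with HIF2A siRNA and at 26.2, 38.0 and 20.1 CPM in the double knockdown. The double knockdown libraries all lay above the control libraries, and CA2 was higher with HIF1A siRNA than with control siRNA at all 3 numbers. HIF2A siRNA alone gave 82.1, 161 and 90.2% of control at replicates 1, 2 and 3, which is no shared direction.

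CA2 was at 144% of control with HIF1A siRNA (111 to 185%), at 108% with HIF2A siRNA (83.4 to 139%) and at 167% in the double knockdown (130 to 216%). Its order was thus opposite to that of CA9 for HIF1A siRNA, with the interval of the HIF2A siRNA effect spanning 100%. HIF1A siRNA went with 155% of CA2 in HIF2A-depleted cells (120 to 200%).

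SLC4A7 was at 19.9, 20.9 and 30.9 CPM in control replicates 1, 2 and 3 and at 13.8, 21.6 and 35.9 CPM with HIF1A siRNA. It was at 17.0, 29.1 and 34.8 CPM with HIF2A siRNA and at 18.5, 19.3 and 44.1 CPM in the double knockdown. All 4 groups overlapped, and replicate 3 was the highest library of each. SLC4A7 was at 94.3% of control with HIF1A siRNA (72.4 to 123%), at 111% with HIF2A siRNA (84.9 to 144%) and at 108% in the double knockdown (83.1 to 141%). All 3 intervals span 100%, so that with 3 replicates a change inside them was neither shown nor excluded.

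In a fit of all 12 libraries, with edgeR's quasi-likelihood test and an adjusted p limit of 0.05, 181 genes (1.39% of those tested) passed with HIF1A siRNA against control, and 1 of the 4 genes was among them, CA9. With HIF2A siRNA 26 genes (0.200%) passed and 0 of the 4. With the double knockdown 1336 genes (10.3%) passed and 3 of the 4, with CA9 and CA12 lower and CA2 higher. Against HIF1A siRNA alone, the double knockdown had 182 genes past the limit (1.40%), with CA12 among them, and against HIF2A siRNA alone it had 520 (4.0%), with CA9 and CA12. The 5 comparisons share libraries, and because the 4 genes were selected on these levels, nothing is read from their counts beside these shares. CA2 passed in the double knockdown in 16 of 22 alternative settings and was lost without the replicate block, without control replicate 2, without the double knockdown replicate 1 or 3 and without replicate number 1 or 3.

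**Figure D2:**
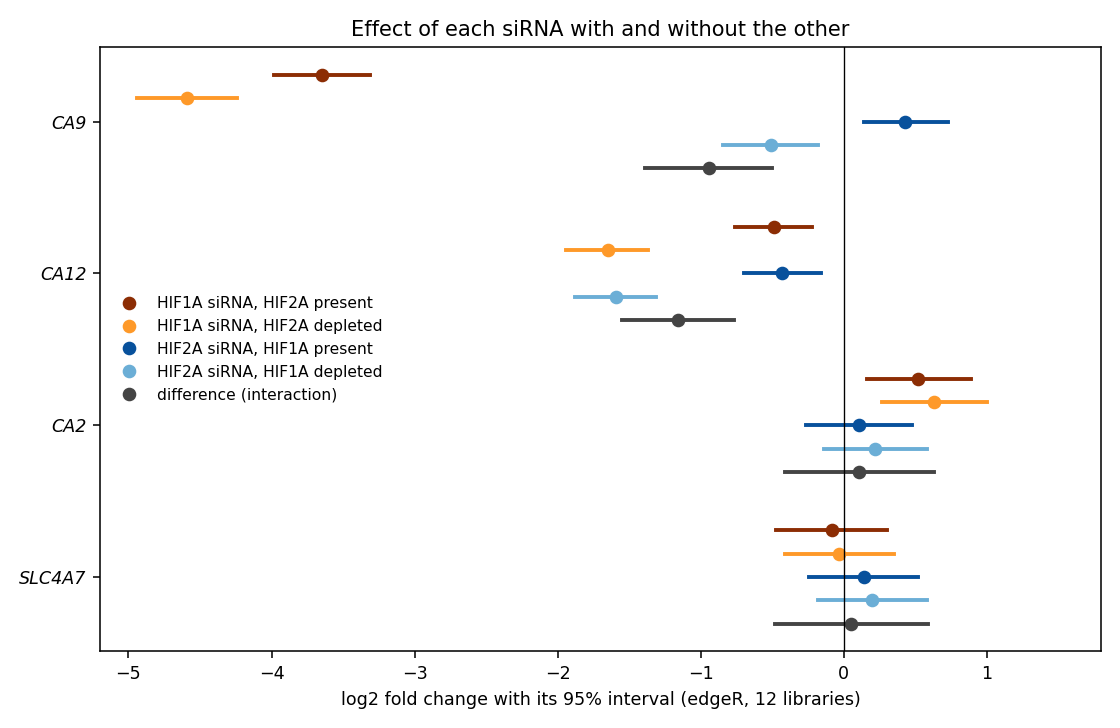
Log2 fold changes (points) with 95% intervals (lines) of each siRNA in cells with and without the other siRNA, and their difference, the interaction, for the 4 genes. For CA9 the HIF2A siRNA effect lies at 0.43 alone and at -0.51 beside HIF1A siRNA, and for CA12 both effects deepen, from -0.49 and -0.43 to -1.65 and -1.59.

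Whether the siRNAs add up was examined on a pair of scales, since effects that add in CPM do not multiply. On the linear scale the expected level is the HIF1A siRNA level plus the HIF2A siRNA level minus the control level. On the log scale it is the HIF1A siRNA level times the HIF2A siRNA level divided by the control level, and the departure from it is the interaction of the siRNAs in the fit. Percentages of the product were taken after adding 0.5 CPM to each level.

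CA12 in the double knockdown was below both expectations at each of the 3 numbers. HIF1A siRNA removed 19.7 ± 7.07 CPM of CA12 (SD, n = 3) and HIF2A siRNA 17.9 ± 11.5 CPM, while both together removed 56.7 ± 12.2 CPM. The double knockdown differed from the sum by -13.6, -40.4 and -3.57 CPM at replicates 1, 2 and 3, a mean difference of -19.2 ± 19 CPM that is about as large as its spread. It held 50.1, 37.3 and 49.2% of the product of the single effects at replicates 1, 2 and 3. The interaction was -1.16 on the log2 scale (SE 0.18, 95% interval -1.55 to -0.77), or 44.7% of the product (34.0 to 58.6%), and 1.82% of the 13000 genes had a lower value.

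For CA9 the expectations lay far apart, because HIF1A siRNA removed most of the transcript while the effect of HIF2A siRNA, written as a loss, was -78.4 ± 37.8 CPM (SD, n = 3), a higher level. HIF1A siRNA alone removed 207 ± 65.9 CPM and both siRNAs together 213 ± 67.9 CPM. The sum expectation was 97.1 ± 41.1 CPM and the product expectation 24.9 ± 10.7 CPM, against 13.0 ± 5.43 CPM measured. The double knockdown held 51.2, 54.8 and 55.6% of the product at replicates 1, 2 and 3. The interaction was -0.94 (SE 0.21, interval -1.39 to -0.50), or 52.0% of the product (38.3 to 70.6%), and 2.54% of the genes had a lower value. The part that HIF2A siRNA removed in HIF1A-depleted cells was 5.64 ± 3.82 CPM, which for CA12 was 37.1 ± 13.5 CPM.

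CA2 and SLC4A7 departed in both directions. The double knockdown of CA2 held 137, 74.2 and 129% of the product at replicates 1, 2 and 3, with an interaction of 0.11 (interval -0.41 to 0.63). That of SLC4A7 held 154, 64.8 and 109%, with an interaction of 0.05 (-0.48 to 0.59). Both intervals span 0 and reach 0.41 or more to either side, so that departures inside them were neither shown nor excluded.

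Across all genes, 0 of 13000 (0%) passed the interaction test of edgeR at the adjusted limit, with 318 at an unadjusted p under 0.05 and 11 past the limit in DESeq2. Those 318 are a smaller share of the 13000 than the 0.05 that the unadjusted limit lets through without any effect. The intervals of CA9 and CA12 above are for single genes and are not adjusted for the number of genes tested. DESeq2 placed both among its calls, and of 21 alternative settings CA9 was called in 1 and CA12 in 4. Because the 4 genes were selected on levels in these libraries, nothing is read from these calls. HIF1A mRNA, at 28.7 ± 4.09 CPM in the double knockdown, was not lower there than with HIF1A siRNA alone (18.3 ± 3.62 CPM), while CA9 and CA12 were. Its part in the interaction was not tested.

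**Figure D3:**
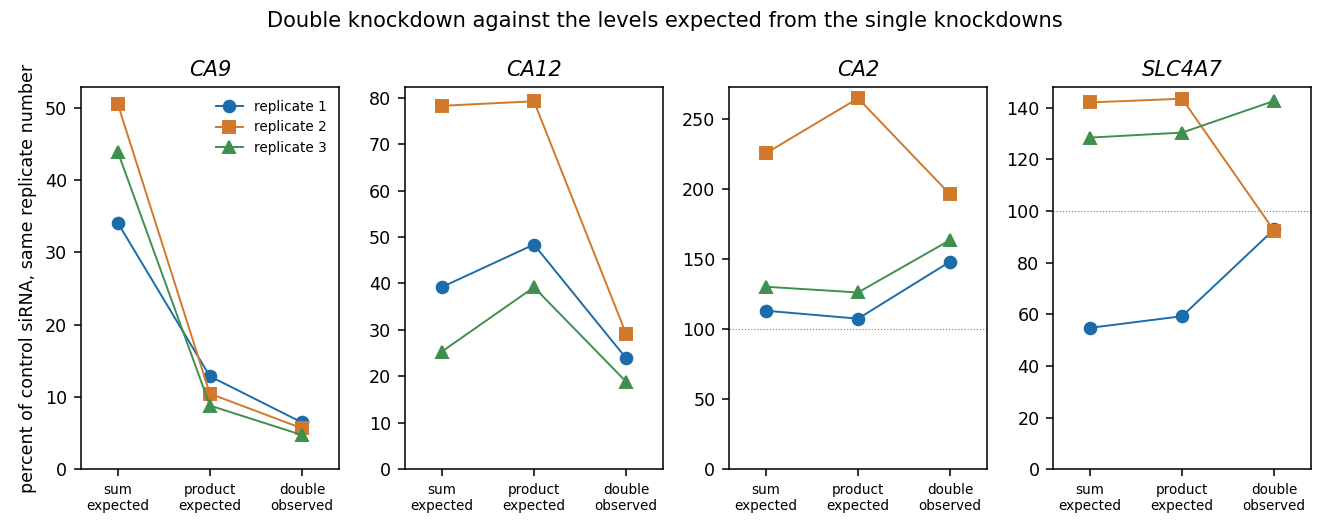
Level expected from the sum and from the product of the single knockdowns and level measured in the double knockdown, each as a percent of the control siRNA library of the same number, without the 0.5 CPM. CA12 ends below both expectations in all 3 replicates and CA9 below the lower one, while the lines of CA2 and SLC4A7 run in both directions; the dotted line is the control.

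The balance of the enzymes differed between the groups. For each count of CA12 there were 2.65 to 3.44 counts of CA9 in the control libraries, 0.287 to 0.406 with HIF1A siRNA, 5.18 to 5.48 with HIF2A siRNA and 0.665 to 0.762 in the double knockdown. The 4 ranges did not overlap, and replicates lay closer together in this ratio than in either level.

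Divided by transcript length (the GENCODE canonical transcript, an annotation other than the one used for counting), CA9 was at 146 ± 47.6 CPM per kilobase in control cells, CA12 at 12.3 ± 3.07 and CA2 at 10.5 ± 2.37 (SD, n = 3). Within each control library CA12 was above CA2 (14.7, 13.5 and 8.87 against 11.3, 12.4 and 7.87 CPM per kilobase at replicates 1, 2 and 3), although the ranges of the genes overlapped. CA9 thus made up 85.4 ± 1.47% of the summed level of the 6 carbonic anhydrases that passed the filter, and 89.5 ± 1.07% with HIF2A siRNA. With HIF1A siRNA the share of CA9 was 30.5 ± 6.90%, that of CA2 41.0 ± 6.6% and that of CA12 23.5 ± 1.31%. In level, CA2 was at 14.9, 20.2 and 11.0 CPM per kilobase, CA9 at 16.9, 13.4 and 5.92 and CA12 at 10.6, 11.6 and 5.21 in HIF1A siRNA replicates 1, 2 and 3. CA2 was thus above CA12 in 3 of 3 libraries and above CA9 in 2 of 3. In the double knockdown CA2 took 58.4 ± 6.41% of the sum, CA9 26.5 ± 5.34% and CA12 9.59 ± 1.25%. SLC4A7 lay between 2.94 and 3.38 CPM per kilobase in the group means.

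**Figure D4:**
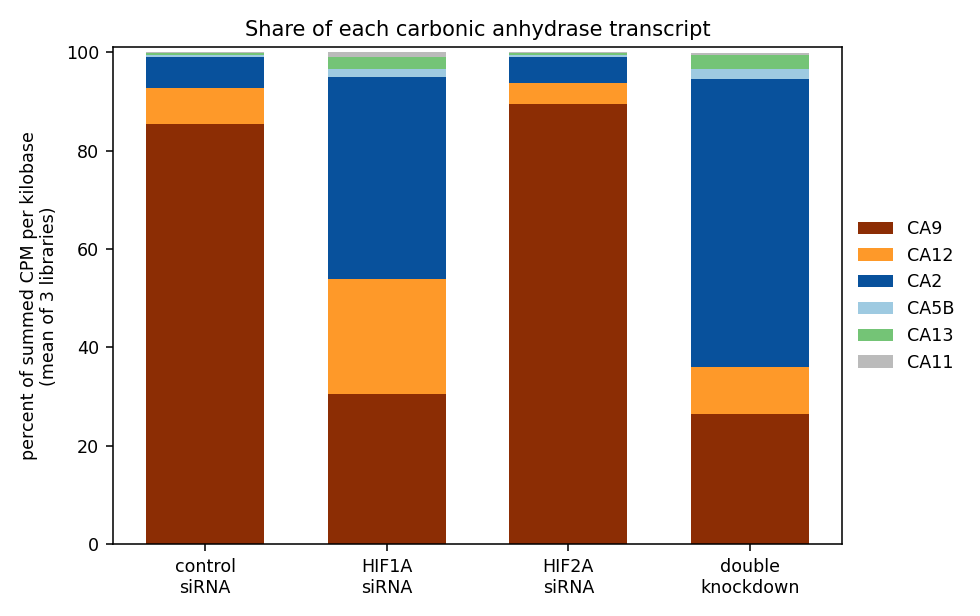
Mean share (bars stacked to 100%, 3 libraries per group) of each of the 6 carbonic anhydrases in their summed CPM per kilobase. CA9 holds 85.4% in control cells and 89.5% with HIF2A siRNA, and CA2 is the tallest block with HIF1A siRNA (41.0%) and in the double knockdown (58.4%).

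Of the 12 other carbonic anhydrases, 3 passed the filter and 0 of these passed the test in any comparison. The mitochondrial enzyme CA5B lay at 2.93 to 6.86 CPM over all libraries, the cytosolic CA13 at 1.55 to 5.12 CPM, and CA11, a relative without catalytic activity, at 0 to 1.08 CPM. Their median log2 fold changes were 0.27 with HIF1A siRNA, 0.20 with HIF2A siRNA and 0.03 in the double knockdown, beside 0 over all genes in each.

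Of the 14 other bicarbonate transporters 8 were tested, and 1 of them, SLC4A8, passed in any comparison, in the double knockdown against control and against HIF2A siRNA, where 10.3% and 4.0% of all genes did. SLC4A8, a sodium-driven chloride/bicarbonate exchanger, was at 13.9, 7.38 and 14.9 CPM in control replicates 1, 2 and 3 and at 2.02, 1.35 and 6.13 CPM in the double knockdown. It fell by 2.03 on the log2 scale (SE 0.31, adjusted p = 5.7e-04, edgeR quasi-likelihood test with Benjamini-Hochberg adjustment), with all 3 replicates lower. With HIF1A siRNA alone it was at 5.19, 4.17 and 7.30 CPM and with HIF2A siRNA alone at 7.12, 8.27 and 12.1 CPM, and neither comparison with the control passed (edgeR adjusted p = 0.091 and 0.86). Against HIF2A siRNA, the double knockdown was lower by a log2 fold change of -1.66 (edgeR adjusted p = 0.005). The most abundant members by CPM were the anion exchanger SLC4A2 (316 CPM in control cells), the electrogenic cotransporter SLC4A4 (52.5 CPM) and the exchanger SLC26A6 (23.0 CPM), and none of them passed in any comparison. The median of the 8 in the double knockdown was -0.18 on the log2 scale, beside 0 over all genes.

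Of 16 acid extruders 12 were tested. SLC16A3, the lactate exporter MCT4, was at 601 CPM in control cells, 258 with HIF1A siRNA, 630 with HIF2A siRNA and 243 in the double knockdown (means of 3). The 2 groups with HIF1A siRNA lay at 196 to 289 CPM, and the other 2 at 525 to 757 CPM. It fell by 1.23 on the log2 scale with HIF1A siRNA (SE 0.14, edgeR adjusted p = 1.3e-04) and by 1.32 in the double knockdown (SE 0.14, adjusted p = 2.3e-05). Against HIF2A siRNA the double knockdown was lower by a log2 fold change of -1.38 (edgeR adjusted p = 2.5e-05), and against HIF1A siRNA it was at -0.09 (adjusted p = 0.86). SLC16A3 thus shared with CA9 the drop under HIF1A siRNA, with an interaction of -0.15 (SE 0.20) beside -0.94 for CA9.

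In the double knockdown the monocarboxylate transporter SLC16A7 rose to 14.1 CPM from 8.71 CPM (log2 fold change 0.73, edgeR adjusted p = 0.032). BSG, the chaperone of SLC16A1 and SLC16A3, was at 501 CPM in control cells and 555 CPM in the double knockdown, and the lactate transporter SLC16A1 at 216 and 203 CPM, and neither passed in any comparison. With HIF1A siRNA 1 of the 12 passed, where 1.39% of all genes did, and their median log2 fold change was -0.08. With HIF2A siRNA 0 passed, and it was 0.04, beside 0 over all genes in both.

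The genes whose log2 CPM moved most like that of CA9 over the 12 libraries, after the mean of each replicate number was removed, were ALDOC (r = 0.995), PFKFB4 (0.994), BNIP3 (0.994), GPI (0.993) and TPI1 (0.990). With HIF1A siRNA their log2 fold changes ran from -2.51 for PFKFB4 to -0.95 for GPI, all smaller than the -3.65 of CA9, and with HIF2A siRNA from 0.03 for GPI to 0.24 for PFKFB4. The genes most like CA12 were LPCAT1 (r = 0.995), APOL1 (0.987), KLHDC7A (0.978), NDRG1 (0.978) and FAM83D (0.977). NDRG1 had log2 fold changes of -0.84 and -0.51 with the single siRNAs and -2.63 with both, an interaction of -1.28 beside the -1.16 of CA12. In LPCAT1 the 3 values were -0.15, -0.16 and -0.60. An r over 0.9 was reached by 209 genes for CA9, 134 for CA12, 12 for CA2 and 29 for SLC4A7. The closest to CA2 were GPRC5B (0.952), ADCK1 (0.947) and SLC17A3 (0.944), and the closest to SLC4A7 were NUBPL (0.974), POLA1 (0.969) and PTPN11 (0.954). These correlations rest on 12 libraries in 4 groups that share their cell line and replicate cultures, and describe likeness of pattern only.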

How the data were processed

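RNA was measured in 12 RCC4 libraries, 4 siRNA groups of 3, grouped by the labels. Per the labels and the methods of the study, polyA RNA was made into directional libraries, reads were trimmed with Trim Galore (0.3.3), aligned to hg19 with HISAT2 (2.05), filtered with Picard (2.0.1) and counted per gene with HTSeq (0.5.4p3, intersection-strict). The authors deposited raw counts per gene symbol, and the study left the double knockdown out of its own testing. The strand setting of the counting is not given in the sources used here. CA9 exons overlap ARHGEF39 on the opposite strand (GENCODE 44, GRCh38), which lay at 4.45 to 11.5 CPM, so that some reads of either could be miscounted or dropped.

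From these counts, edgeR (4.0.16, R 4.3.3) was fitted to all 12 libraries with TMM factors (0.98 to 1.02), its expression filter (10 counts, total 15), the replicate number as a block, quasi-likelihood tests of 6 contrasts and Benjamini-Hochberg adjustment over 13000 genes. CPM were scaled by TMM. Behind the levels lay at least 139 counts of CA9, 209 of CA12, 199 of CA2 and 256 of SLC4A7 in every library. The script was tested on simulated data first. The study pairs conditions by replicate. Deviations from group means correlated at 0.099 to 0.813 between libraries of the same number (18 pairs) and at -0.724 to 0.527 otherwise (36 pairs). Replicates differed by more than sampling noise (chi-square per degree of freedom 16.3 to 122), so none was merged.

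The 4 genes and all lists were chosen with earlier results of these data known. From each list the text names the genes past the limit (at most 5 per contrast), the 3 with most CPM and each carbonic anhydrase that passed the filter. Some results of the lists are not reported here. The genes most like CA9 and CA12 in pattern (5 each, by Pearson r of log2(CPM + 0.5)) and most like CA2 and SLC4A7 (3 each) are named too. Lengths came from GENCODE 44, promoters from RefSeq. Alternatives were DESeq2 (1.42.0), other size factors, other filters, no block, subsets of groups and leaving out libraries.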

Additional observations from a re-analysis of the deposited data

Results flagged for a closer look

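The effect of HIF2A siRNA on CA9 had opposite signs in cells with and without HIF1A siRNA. Without the other siRNA, the mean log2 ratio within replicate numbers was 0.43, with CA9 higher at all 3 numbers. Beside HIF1A siRNA it was -0.48, with CA9 lower at all 3. This drew attention because every replicate moved one way in the first setting and the opposite way in the second. These signs carry no test of their own. Neither effect on CA9 was among the calls of edgeR over 13000 genes, and nor was the fitted difference, the interaction of -0.94 given above. For CA12 both effects of HIF2A siRNA pointed down.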

How the results depend on the processing

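The genes described here were selected on levels in these same libraries, so nothing is read from their calls kept, lost or gained below. CA9 kept its call in all settings with HIF1A siRNA (23) and in the double knockdown against control and against HIF2A siRNA (22 each), and CA12 kept its call in the double knockdown against control in all 22. Without the replicate block, CA12 of the double knockdown lost its calls against HIF1A siRNA (-1.59) and HIF2A siRNA (-1.63), CA2 lost its call against control (0.77), SLC4A7 against HIF2A siRNA turned to 0.02, and the counts over all genes were 47, 2, 195, 8 and 90 for HIF1A siRNA, HIF2A siRNA and the double knockdown against control, HIF1A siRNA and HIF2A siRNA. With DESeq2 they were 298 with HIF1A siRNA, 82 with HIF2A siRNA, 403 where both siRNAs were set against HIF1A siRNA, 818 where they were set against HIF2A siRNA and 11 for the interaction, and calls were gained by CA12 with HIF1A siRNA (-0.48), CA2 against HIF2A siRNA (0.63) and the interactions of CA9 (-0.95) and CA12 (-1.17). Without a filter, HIF2A siRNA had 55 calls and the interaction 4, with CA12 (-1.17) called, and CA2 against HIF2A siRNA (0.63) too. With total counts only, the interaction had 3, with CA12 (-1.18) called, and CA2 against HIF2A siRNA (0.66) too. With only the libraries compared, HIF2A siRNA had 3 calls, the double knockdown 2609 against control, 656 against HIF1A siRNA and 164 against HIF2A siRNA. With the 9 libraries of the other groups HIF2A siRNA had 11.

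Leaving out libraries gave 73 (without replicate 3) to 317 (without HIF2A siRNA replicate 2) calls with HIF1A siRNA, 1 (without replicate 3) to 49 (without replicate 2) with HIF2A siRNA, and 302 to 2307, 26 to 442 and 158 to 672 for the double knockdown against control, HIF1A siRNA and HIF2A siRNA, each lowest without replicate 3. The interaction had 0 to 3. CA12 with HIF1A siRNA ranged from -0.35 to -0.62 (called without replicate 2, without control replicate 2 or without HIF2A siRNA replicate 2) and in the interaction from -1.29 to -1.02 (called without HIF2A siRNA replicate 1). CA2 ranged from 0.36 to 0.65 with HIF1A siRNA (called without HIF2A siRNA replicate 2), -0.23 to 0.33 with HIF2A siRNA, 0.58 to 0.87 in the double knockdown, 0.49 to 0.90 against HIF2A siRNA and -0.10 to 0.43 in the interaction. SLC4A7 ranged from -0.24 to 0.14 with HIF1A siRNA, -0.05 to 0.35 with HIF2A siRNA, -0.10 to 0.29 in the double knockdown, -0.24 to 0.24 against HIF2A siRNA and -0.27 to 0.38 in the interaction. The causes were not tested. By union exon length, an alternative chosen after seeing the data, CA12 was 7.80% of CA9 per kilobase in control cells, against 8.66% by canonical length. All libraries come from 1 cell line, the double knockdown lacks control siRNA, and mRNA is not protein.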
